A study of Mus musculus with 32 samples.

Results

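The 10 genes described here mark lipid-associated macrophages, and their levels were read in 4 tissues of mice on a high-fat diet: Trem2, Tyrobp, Cd9, Cd63, Gpnmb, Lipa, Fabp5, Lgals3, Spp1 and Capg. They were taken by gene symbol from a table of 54532 genes, where each of the 10 symbols occurred 1 time. The libraries came from wild-type C57/Bl6j mice that ate a diet with 60% of fat for 12 weeks and then received auranofin or vehicle for 4 weeks. Auranofin, an inhibitor of thioredoxin reductase that carries gold and was made for rheumatoid arthritis, was given at 1 mg/kg 3 times a week. Both groups shared the strain and the diet, so every level below is that of mice on the high-fat diet. Each of 4 tissues had 4 auranofin and 4 vehicle libraries, 32 in all: epididymal white fat (eWAT, a visceral depot), inguinal white fat (iWAT, a subcutaneous depot), intrascapular brown fat (BAT, as the labels call it) and liver. Whether each library came from its own animal is not stated in the labels, so p-values measure only the spread between these libraries.

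In obese fat, macrophages gather around dying adipocytes and take up their lipid. These cells carry TREM2, a surface receptor for lipids and lipoproteins that signals through its adaptor TYROBP (also called DAP12), and they switch on genes for lysosomes, lipid handling and secreted matrix proteins. In mouse fat this state is known from Trem2-expressing, Cd9-positive macrophages, and most of its genes are also used by other cells, Fabp5 and Lipa by many of them.

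Levels are FPKM, fragments scaled by gene length and a library size, the unit of the authors' deposited table. They are means ± SD over 4 libraries unless each library is given. Each library held between 13606756 and 19205640 reads in genes. The library size implied by the values lay below that count in every liver library and above it in every eWAT and iWAT library. It was 13267136 against 18109130 reads in the first vehicle liver library, and 24013795 against 17036845 in the first vehicle eWAT library. Levels compared between tissues carry that scaling, and what set it was not tested. Differences are on the log2(FPKM + 1) scale, which understates changes of genes at low levels, with their standard errors (SE). A gene counted as called where its Benjamini-Hochberg adjusted p from limma, over all genes tested in that comparison, was under 0.05. Marker genes followed the labels: Ucp1, the uncoupling protein of brown fat, averaged 3129 and 2506 FPKM in auranofin and vehicle BAT and at most 0.313 FPKM in the other tissues. Alb, encoding the liver protein albumin, averaged 49200 and 45660 FPKM in auranofin and vehicle liver. Markers of other tissues were also high in some iWAT libraries. The summed level of 16 skeletal muscle genes was 1866 FPKM in the fourth vehicle and 1093 FPKM in the fourth auranofin iWAT library, against 43.7 to 73.7 FPKM in the others. The mean log2 level of 12 hepatocyte genes was 5.29 in the first vehicle iWAT library and 2.03 to 3.15 in the other iWAT libraries. Genome positions follow mm10. The library kit kept no strand, and reads of the antisense genes Gm28809 and Gm26728 that lie across Cd9 came to 0.198% and 0.053% of the reads of Cd9. Cd63 and Fabp5 have processed copies in the table, Cd63-ps with at most 2.52 FPKM and AC109261.2 with at most 0.775 FPKM, so part of the reads of Cd63 and Fabp5 could be split between copies.

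The bases before the start sites show what sequence the members' promoters carry. RefSeq windows of 250 bases before the start (build GRCm38.p6) were found for 8 of the 10 members, 9 windows in all with 2 for Spp1. The windows of 4 genes are shown: Trem2, the receptor, and Spp1, Gpnmb and Lipa, which had the smallest p-values of the members in eWAT. Each of these windows lies outside the annotated coding sequence and untranslated regions of its own gene. They are written from 5′ to 3′ on the gene's strand, and capitals mark matches to 1 of 5 motifs on either strand: CACGTG, the E-box bound by the lysosomal regulator TFEB and its relatives, CATGTG (the core of the M-box bound by MITF), TGANTCA (AP-1), GAGGAA (a core of PU.1 sites) and TATAAA (the TATA box).
Trem2, chr17:48346151-48346400, + strand: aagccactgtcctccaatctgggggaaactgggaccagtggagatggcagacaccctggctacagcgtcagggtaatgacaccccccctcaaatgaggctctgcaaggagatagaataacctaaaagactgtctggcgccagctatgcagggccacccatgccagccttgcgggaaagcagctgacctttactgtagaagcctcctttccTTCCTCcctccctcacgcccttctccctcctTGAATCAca
Spp1, chr5:104434861-104435110, + strand: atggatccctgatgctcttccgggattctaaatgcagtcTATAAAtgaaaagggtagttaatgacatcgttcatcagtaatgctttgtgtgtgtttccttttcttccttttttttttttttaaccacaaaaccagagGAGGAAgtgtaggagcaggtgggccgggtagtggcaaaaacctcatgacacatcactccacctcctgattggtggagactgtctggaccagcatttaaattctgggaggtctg
Gpnmb, chr6:49036268-49036517, + strand: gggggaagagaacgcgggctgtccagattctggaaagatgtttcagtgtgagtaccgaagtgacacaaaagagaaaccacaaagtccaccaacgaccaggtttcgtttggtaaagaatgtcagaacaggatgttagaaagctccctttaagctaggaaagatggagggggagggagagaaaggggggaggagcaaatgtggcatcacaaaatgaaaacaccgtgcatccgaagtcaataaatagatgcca
Lipa, chr19:34527475-34527724, - strand: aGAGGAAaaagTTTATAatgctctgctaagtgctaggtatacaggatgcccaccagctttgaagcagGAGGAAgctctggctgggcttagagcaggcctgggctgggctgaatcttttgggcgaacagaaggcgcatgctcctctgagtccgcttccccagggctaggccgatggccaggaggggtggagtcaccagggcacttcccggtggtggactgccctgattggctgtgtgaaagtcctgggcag
Trem2 held an AP-1 match at -9 to -3 and a GAGGAA match at -40 to -35, counted from the start site. Spp1 held GAGGAA at -113 to -108 and TATAAA at -211 to -206, and Lipa held GAGGAA at -249 to -244 and at -183 to -178 and TATAAA at -239 to -234. The Gpnmb window held none of the 5. It was also the only window for which the bases after the start site were not found in annotated transcripts of the gene. Over the 9 windows, GAGGAA occurred for 4 of 8 members, TATAAA for 2, TGANTCA for 1, CATGTG for 1 (Cd9) and CACGTG for 0. Among 32851 RefSeq promoters the shares were 23.25% for GAGGAA, 12.37% for TATAAA, 6.75% for TGANTCA, 12.25% for CATGTG and 6.02% for CACGTG, so each motif is a common one. These matches are letters in a window and nothing more.

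In vehicle mice, 9 of the 10 genes had their highest mean FPKM in eWAT, though on the log2 scale Spp1 was as high in liver within its error, and the spread between tissues was far wider than the spread between libraries for most of them. Trem2 (ENSMUSG00000023992, chr17:48346401-48354147) had 37.7 ± 22.9 FPKM in eWAT, 3.57 ± 2.49 in iWAT, 1.52 ± 0.729 in BAT and 0.348 ± 0.237 in liver. The difference was 3.06 (SE 0.43, limma adjusted p = 0.00147) for eWAT over iWAT, 3.83 (SE 0.35, adjusted p = 3.50e-05) over BAT and 4.70 (SE 0.33, adjusted p = 1.55e-06) over liver. No eWAT vehicle library came near the others, since the lowest had 22.8 FPKM and the highest library of any other vehicle tissue had 7.21 FPKM, in iWAT. Levels in iWAT and BAT, which are neighbours in that order, were not called different (0.76, SE 0.33, adjusted p = 0.073). The call depended on the setting: iWAT was higher on a TPM scale (1.25, SE 0.40, limma adjusted p = 0.0214), without the third iWAT library (0.99, adjusted p = 0.0288), without the second BAT library (0.95, adjusted p = 0.0432) and in the auranofin libraries (1.18, SE 0.18, adjusted p = 5.97e-04). Tyrobp (ENSMUSG00000030579, chr7:30413760-30417585), the adaptor of TREM2 and of other receptors of myeloid and NK cells, had 265.5 ± 135.1 FPKM in eWAT, 50.5 ± 14.8 in iWAT, 20.7 ± 10.1 in BAT and 13.7 ± 4.15 in liver. Here BAT and liver were the neighbours that were not separated (0.51, SE 0.30, limma adjusted p = 0.154). BAT was called higher on a TPM scale (0.90, adjusted p = 0.0252) and after quantile normalisation (0.87, adjusted p = 0.0269), and lower in the auranofin libraries (-0.71, adjusted p = 0.0151).

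**Figure D1:**
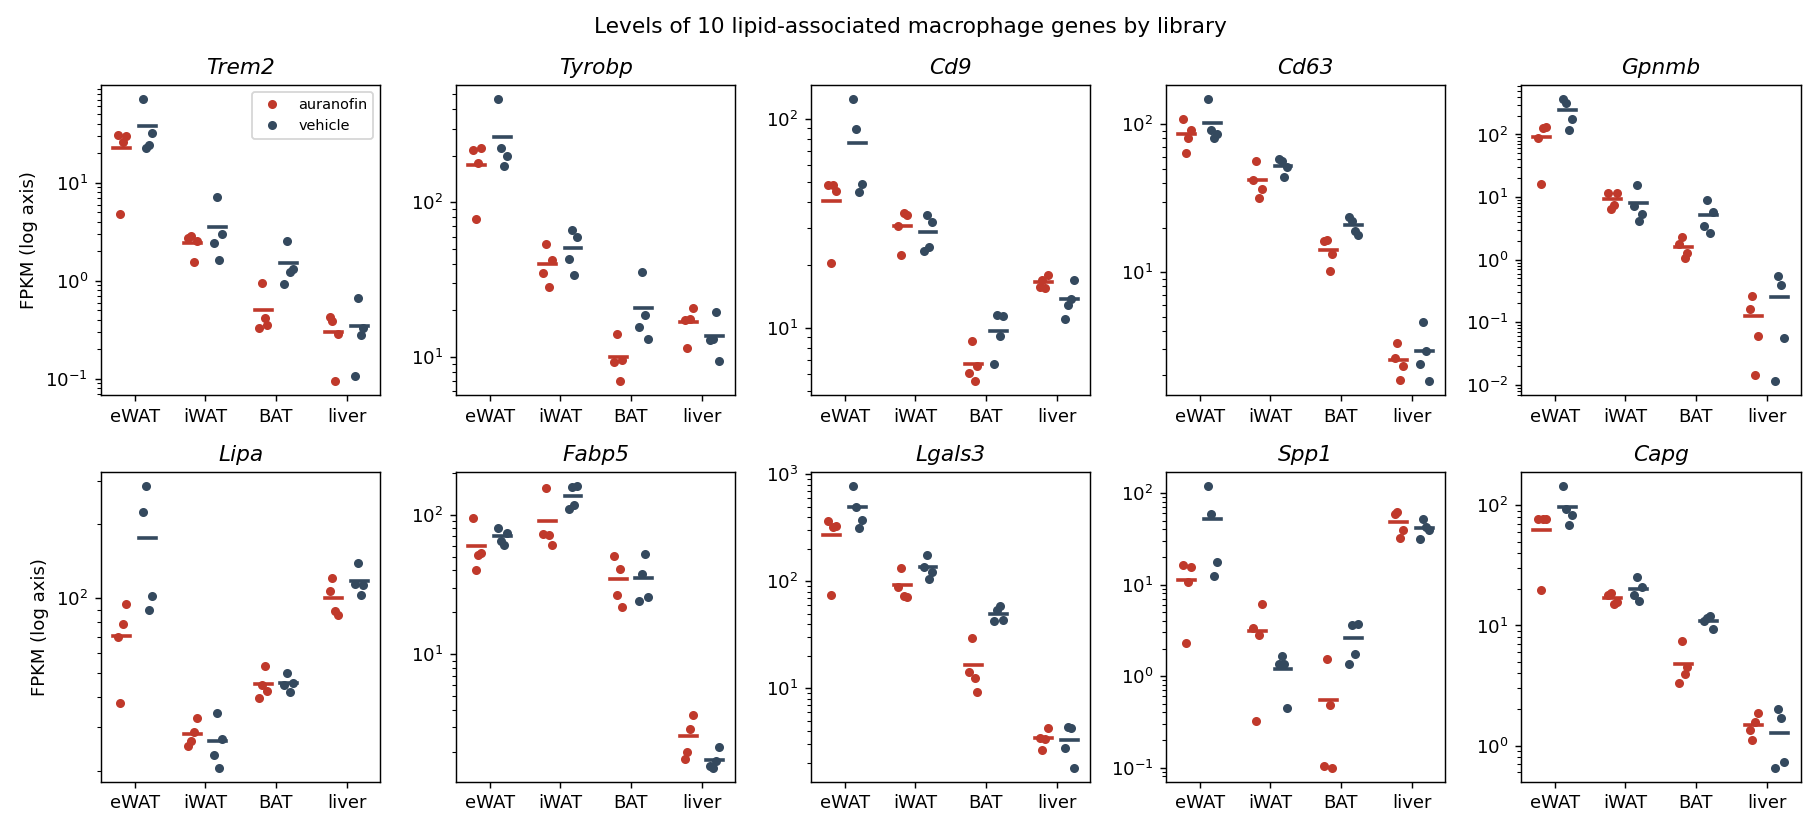
FPKM of each gene (log axis) in every library of 4 tissues, auranofin libraries in red to the left of vehicle libraries in dark blue, with lines at the group means. Among the vehicle means eWAT is highest for all genes but Fabp5, whose vehicle mean is 136.4 FPKM in iWAT and 69.9 FPKM in eWAT.

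The membrane proteins followed the same order. Gpnmb (ENSMUSG00000029816, chr6:49036546-49070929), a glycoprotein of lysosome-rich cells, spanned the widest range, with 246.2 ± 118.7 FPKM in vehicle eWAT, 8.13 ± 5.32 in iWAT, 5.22 ± 2.90 in BAT and 0.255 ± 0.263 in liver. Its eWAT libraries exceeded those of iWAT by 4.78 (SE 0.45, limma adjusted p = 5.54e-04), and iWAT and BAT were not separated (0.51, SE 0.41, adjusted p = 0.31). In the auranofin libraries Gpnmb was called higher in iWAT than in BAT (1.97, SE 0.22, limma adjusted p = 1.07e-04). Cd63 (ENSMUSG00000025351, chr10:128900989-128912822), a tetraspanin of late endosomes, had 101.2 ± 31.4 FPKM in eWAT, 52.5 ± 6.48 in iWAT, 20.7 ± 2.71 in BAT and 2.93 ± 1.19 in liver. Each step of that order was called, the smallest being eWAT over iWAT (0.90, SE 0.21, limma adjusted p = 0.0101). Cd9 (ENSMUSG00000030342, chr6:125460266-125494791), a tetraspanin of the cell surface, had 76.6 ± 37.6 FPKM in eWAT and 28.6 ± 5.64 in iWAT, but liver with 13.7 ± 2.45 FPKM lay above BAT with 9.67 ± 2.26 FPKM. That BAT-below-liver difference (-0.47, SE 0.17, limma adjusted p = 0.0347) was lost without any 1 of 5 libraries, with adjusted p between 0.0564 and 0.0931. It was smaller and not called on a TPM scale (-0.12, limma adjusted p = 0.57) and after quantile normalisation (-0.18, adjusted p = 0.403), and it was not called with no filter or in one fit of all 32 libraries. The call held under 10 other settings, among them the auranofin libraries. Those held 6.71 ± 1.36 FPKM of Cd9 in BAT and 16.5 ± 1.10 FPKM in liver.

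Secreted and cytoplasmic members were split. Lgals3 (ENSMUSG00000050335, chr14:47367751-47386160), encoding the lectin galectin-3, had 493.2 ± 207.4 FPKM in vehicle eWAT, 135.5 ± 30.8 in iWAT, 50.1 ± 8.21 in BAT and 3.31 ± 1.22 in liver, and Capg (ENSMUSG00000056737, chr6:72544391-72562983), an actin-capping protein, had 97.7 ± 33.5, 20.1 ± 4.13, 10.9 ± 1.17 and 1.27 ± 0.685 FPKM in the same tissues. All 6 tissue pairs were called for both genes. Spp1 (ENSMUSG00000029304, chr5:104435118-104441050), encoding the secreted protein osteopontin, departed from that order. It had 52.3 ± 49.8 FPKM in vehicle eWAT and 41.2 ± 8.51 FPKM in liver, which were not separated (-0.18, SE 0.62, limma adjusted p = 0.813), against 2.6 ± 1.23 in BAT and 1.21 ± 0.528 in iWAT. The vehicle eWAT libraries of Spp1 held 120.1, 59.0, 12.4 and 17.5 FPKM, and the vehicle liver libraries 31.1, 51.8, 42.1 and 39.8 FPKM. The first 2 of these eWAT libraries lay above every liver library and the last 2 below every one.

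The lipid-handling members also departed from that order. Lipa (ENSMUSG00000024781, chr19:34492318-34527474), the lysosomal acid lipase that frees cholesterol and fatty acids from engulfed lipid, had 176.0 ± 95.6 FPKM in vehicle eWAT, 117.6 ± 15.1 in liver, 45.4 ± 3.35 in BAT and 26.3 ± 5.96 in iWAT. Its eWAT and liver levels were not separated (0.42, SE 0.36, limma adjusted p = 0.332), while eWAT exceeded iWAT by 2.55 (SE 0.37, adjusted p = 0.00172). Lipa was called higher in eWAT than in liver on a TPM scale (1.62, SE 0.36, limma adjusted p = 0.00247) and after quantile normalisation (1.44, SE 0.39, adjusted p = 0.00937). Without the first 2 vehicle eWAT libraries, Lipa lay below liver by a log2 difference of -0.28 (SE 0.13, limma adjusted p = 0.0897) and Spp1 was called lower than in liver (-1.40, SE 0.21, adjusted p = 9.83e-04). Spp1 was also called lower with weights for library quality (-1.26, limma adjusted p = 0.0071) and in the auranofin libraries (-2.21, adjusted p = 0.00317). Fabp5 (ENSMUSG00000027533, chr3:10012548-10016607), a fatty acid carrier that adipocytes and endothelium also make, was highest in iWAT, with 136.4 ± 26.4 FPKM, before 69.9 ± 8.65 in eWAT, 34.9 ± 13.1 in BAT and 1.75 ± 0.278 in liver. It was the single member lower in eWAT than in iWAT (-0.94, SE 0.17, limma adjusted p = 0.00401), a call that was lost on a TPM scale (-0.51, adjusted p = 0.0601) and after quantile normalisation (-0.47, adjusted p = 0.0886).

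Counted together, 9 members were called higher and 1 lower in vehicle eWAT than in vehicle iWAT, where 17.5% of all 13580 genes tested were higher and 19.9% lower. Against BAT 10 members were called higher in eWAT (25.2% of all genes higher, 22.5% lower), and against liver 8 were (31.2% higher, 36.0% lower). The other pairs had 6 higher and 1 lower in iWAT than in BAT (31.1% and 29.1% of all genes), 8 higher and 2 lower in iWAT than in liver (35.9% and 40.7%), and 6 higher and 3 lower in BAT than in liver (34.2% and 36.8%). The median difference of the members was 2.25 for eWAT minus iWAT, 3.10 for eWAT minus BAT and 4.69 for eWAT minus liver, beside -0.03, 0.00 and -0.07 over all genes. On a TPM scale the median of all genes itself moved to 0.35, 0.73 and 0.96, and the calls over all genes became 4980 higher and 925 lower, 8330 and 1166, and 9367 and 2175, in place of 2381 and 2704, 3465 and 3091, and 4506 and 5200. Relative to that median the members stood 2.36, 3.23 and 5.12 higher on the TPM scale, and 2.28, 3.10 and 4.77 higher on the scale used here. In the auranofin libraries of the same tissues, the eWAT and iWAT difference was called for 5 members, Trem2, Cd63, Gpnmb, Lipa and Tyrobp, with 595 genes higher and 240 lower of 13706 tested.

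**Figure D2:**
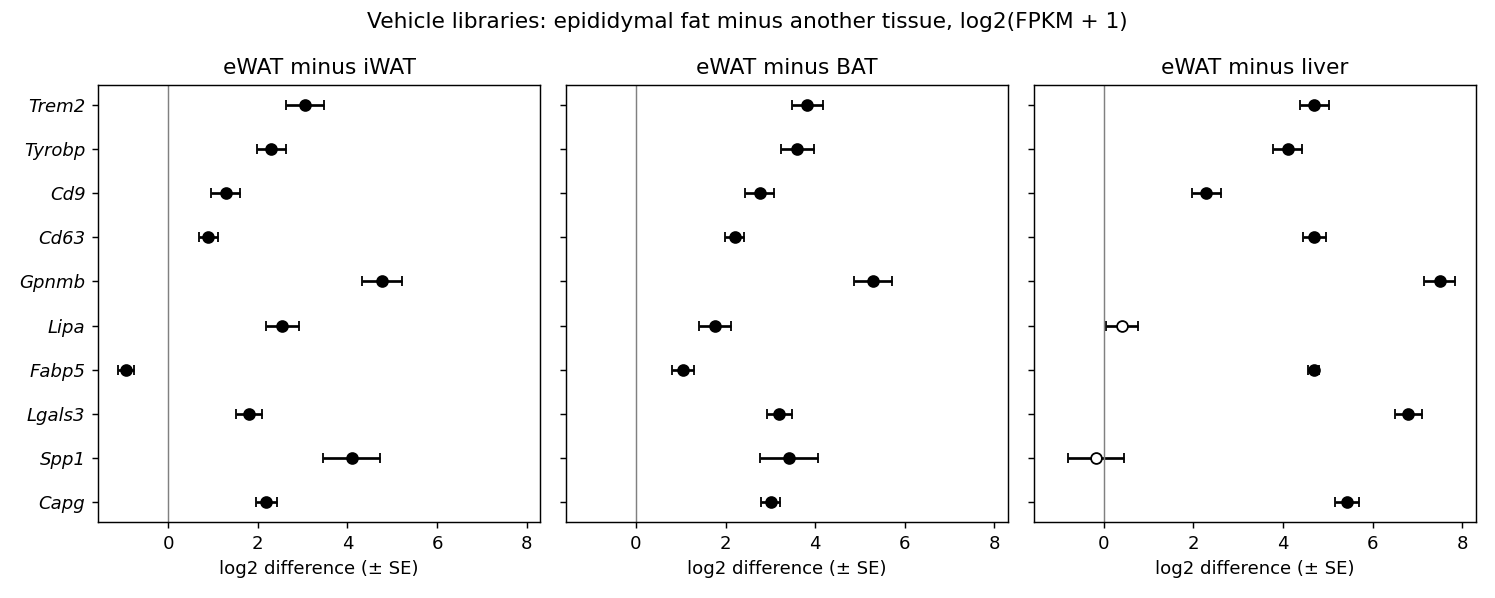
Difference of each gene between vehicle eWAT and vehicle iWAT, BAT or liver, on the log2(FPKM + 1) scale with standard errors; filled points were called and open points were not. Fabp5 against iWAT is the only point below 0 that was called, and Spp1 and Lipa against liver are the open points.

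General macrophage genes followed the same order of tissues. Of 24 genes shared by most macrophages, such as Adgre1 (encoding F4/80), Csf1r and Cd68, 22 were called higher in vehicle eWAT than in iWAT, 24 higher than in BAT and 24 higher than in liver, with median differences of 1.93, 2.92 and 3.13. Of 8 genes of Kupffer cells, the macrophages of the liver, 8 were called lower in vehicle eWAT than in liver, Clec4f most clearly (-5.32, SE 0.17, limma adjusted p = 5.80e-09). In whole tissue, more macrophages and more RNA of a gene per macrophage cannot be told apart.

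Under auranofin, all 10 members had a lower mean in eWAT, by a median of -0.83 on the log2 scale beside 0.00 over all genes, and none of them was called. Nor was any of the 13847 genes tested there (0% by limma, smallest adjusted p = 0.429), with 736 higher and 849 lower at an unadjusted p under 0.05 in that fit. Voom on rebuilt reads called 0 of the 10 as well. At that unadjusted level stood 3 of the 10 members, Lipa, Gpnmb and Spp1. For none of the 10 were the groups apart, a pattern that 3.95% of all genes showed in the lower and 3.00% in the higher direction.

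Trem2 had 30.4, 4.76, 25.8 and 29.9 FPKM in the auranofin eWAT libraries, against 71.5, 22.8, 24.5 and 31.9 FPKM in the vehicle libraries. Tyrobp had 217.4, 78.0, 178.6 and 226.2 FPKM in auranofin eWAT, against 465.6, 224.7, 171.6 and 200.2 FPKM in vehicle eWAT. For both genes the second auranofin library was far below the rest, the first vehicle library was far above them, and the other 6 libraries lay close together. The differences were -0.82 (SE 0.58, limma adjusted p = 0.495) for Trem2 and -0.59 (SE 0.42, adjusted p = 0.492) for Tyrobp.

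Gpnmb had 86.3, 16.1, 128.2 and 133.3 FPKM in auranofin eWAT, against 368.1, 323.5, 118.6 and 174.5 FPKM in vehicle eWAT. Spp1 had 16.4, 2.28, 10.6 and 15.7 FPKM in auranofin eWAT, against 120.1, 59.0, 12.4 and 17.5 FPKM in vehicle eWAT. Lipa had 70.0, 37.8, 78.5 and 94.8 FPKM in auranofin eWAT, against 225.0, 286.5, 89.9 and 102.5 FPKM in vehicle eWAT. In these 3 genes both the first and the second vehicle library stood above all auranofin libraries, and the last 2 vehicle libraries lay among or closer to them. Differences were -1.65 (SE 0.66) for Gpnmb, -1.84 (SE 0.76) for Spp1 and -1.22 (SE 0.43) for Lipa, each with a limma adjusted p of 0.429.

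Among the remaining members Lgals3 had 365.8, 75.2, 321.8 and 327.6 FPKM in auranofin eWAT, against 782.7, 498.4, 316.2 and 375.4 FPKM in vehicle eWAT (-0.99, SE 0.52, limma adjusted p = 0.432). Cd9 (-0.85, SE 0.39) and Capg (-0.76, SE 0.45) had the same 2 extreme libraries, while Cd63 (-0.21, SE 0.25) and Fabp5 (-0.29, SE 0.26) had the smallest differences. Across the 10 genes, the second auranofin library was the lowest of the 8 for all 10, and the first vehicle library was the highest for 8, the exceptions being Lipa and Fabp5. Without that auranofin library the median difference was -0.37, without that vehicle library -0.56, and without the first 2 vehicle libraries -0.49 with Cd63 above 0. A single fit of all 32 libraries, which pools the spread over tissues, called 4 members lower in eWAT: Cd9, Gpnmb, Spp1 and Lipa, with limma adjusted p between 0.0107 and 0.0425, beside 491 genes higher and 789 lower over the table. On a TPM scale the median of all genes in eWAT was -0.14, and the members stood -0.88 from it, beside -0.84 on the scale used here.

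**Figure D3:**
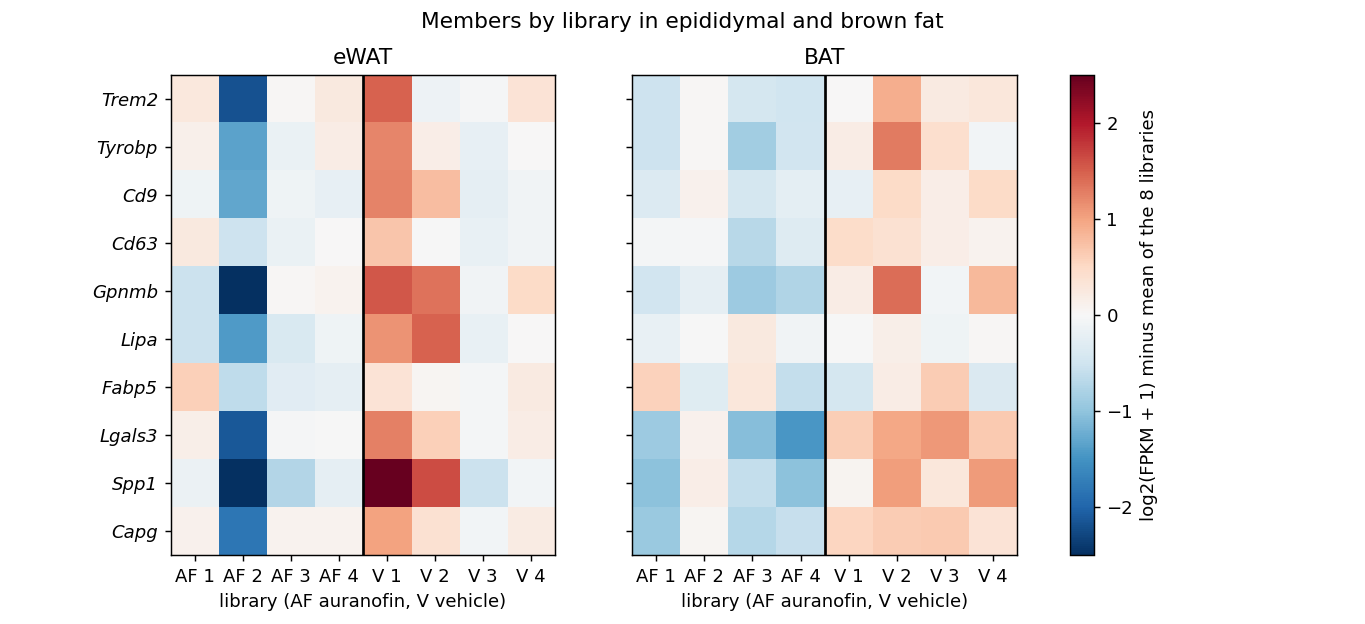
Level of each gene in every library of eWAT and BAT as log2(FPKM + 1) minus the mean of the 8 libraries of that tissue, auranofin (AF) left of vehicle (V), red for higher and blue for lower. In eWAT AF 2 is the lowest library for all 10 genes and V 1 the highest for 8, with V 2 also high for Gpnmb, Spp1 and Lipa, and in BAT the split between the groups runs over most libraries for Lgals3 and Capg.

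In BAT all 10 members again had a lower mean under auranofin, with a median of -0.82 beside 0.02 over all genes. The groups did not overlap for 4 of the 10, Lgals3, Capg, Gpnmb and Cd63, where 3.05% of all genes had every auranofin library below every vehicle library and 2.28% above. None of the 10 was called, as only 3 of 13067 genes were (0.0230%, all lower), and 8 of the 10 had an unadjusted p under 0.05, beside 609 genes higher and 850 lower at that level. Lipa and Fabp5 were the other 2.

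Lgals3 had 14.1, 29.7, 12.5 and 9.33 FPKM in the auranofin BAT libraries, against 42.6, 54.5, 59.5 and 43.8 FPKM in the vehicle libraries. Capg had 3.31, 7.43, 3.95 and 4.48 FPKM in auranofin BAT, against 10.8, 11.6, 11.9 and 9.27 FPKM in vehicle BAT. In both genes every auranofin library was below every vehicle library, and the second auranofin library came closest to the vehicle range. The differences were -1.67 (SE 0.30) for Lgals3 and -1.08 (SE 0.19) for Capg, both with a limma adjusted p of 0.2. Without the second auranofin BAT library, Lgals3 (-1.98, limma adjusted p = 0.00431), Capg (-1.27, adjusted p = 0.00476) and Spp1 (-1.50, adjusted p = 0.0404) were called, and over all genes 21 were called higher and 187 lower. That library also held the most RNA of skeletal muscle, with a summed level of 3495 FPKM over 16 muscle genes, where the other BAT libraries had 53.6 to 1457 FPKM with auranofin and 39.3 to 897.7 FPKM with vehicle. With the muscle level as a covariate 0 members were called, 1 lay above 0 and 9 below, and the median was -0.82.

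Gpnmb had 1.77, 2.30, 1.05 and 1.29 FPKM in auranofin BAT, against 3.39, 9.10, 2.67 and 5.71 FPKM in vehicle BAT (-1.17, SE 0.30, limma adjusted p = 0.254). Cd63 had 16.2, 16.5, 10.1 and 13.3 FPKM in auranofin BAT, against 23.7, 22.2, 18.9 and 17.9 FPKM in vehicle BAT (-0.54, SE 0.16, adjusted p = 0.288). For Cd63 the gap between the groups was narrow, 16.5 against 17.9 FPKM. Trem2 had 0.328, 0.942, 0.416 and 0.356 FPKM in auranofin BAT, against 0.924, 2.58, 1.24 and 1.32 FPKM in vehicle BAT (-0.71, SE 0.21, adjusted p = 0.282), and its groups overlapped through the second auranofin library alone. Spp1 had 0.104, 1.52, 0.481 and 0.1 FPKM in auranofin BAT, against 1.36, 3.60, 1.73 and 3.71 FPKM in vehicle BAT (-1.24, SE 0.32, adjusted p = 0.254). Its lowest auranofin libraries in BAT rest on few reads, the fewest being 2. Tyrobp averaged 9.95 ± 2.91 FPKM in auranofin BAT and 20.7 ± 10.1 FPKM in vehicle BAT (-0.92, SE 0.30, adjusted p = 0.319). Lipa, at 44.9 ± 5.98 and 45.4 ± 3.35 FPKM in auranofin and vehicle BAT, and Fabp5, at 34.8 ± 12.96 and 34.9 ± 13.1 FPKM, differed by -0.02 (SE 0.11) and -0.01 (SE 0.31).

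**Figure D4:**
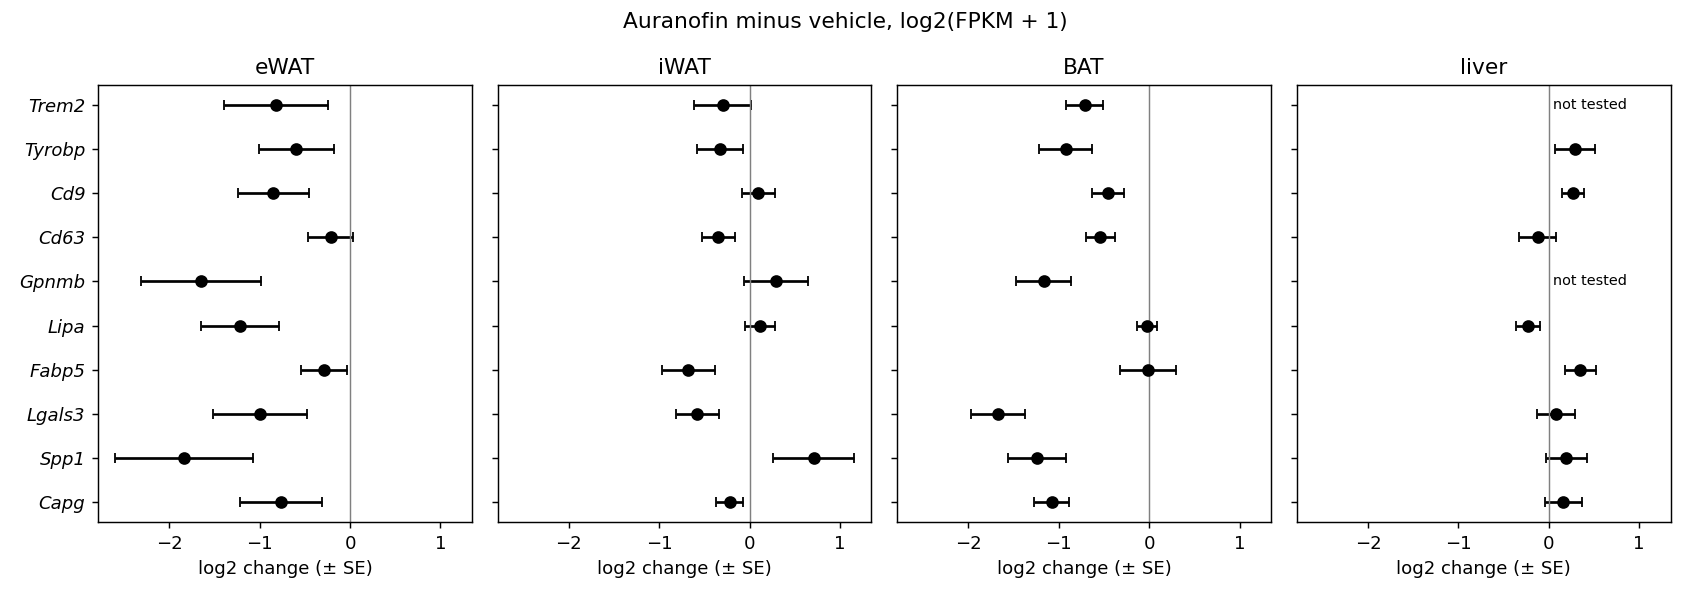
Auranofin minus vehicle for each gene in 4 tissues, as differences of log2(FPKM + 1) with standard errors; negative values are lower under auranofin. All 10 points lie below 0 in eWAT and in BAT, and none passed the threshold in any tissue.

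In iWAT the members had no common direction. With auranofin 4 had a higher mean and 6 a lower one, with a median of -0.26 beside -0.02 over all genes, and 0 were called of 13164 genes tested (0% called, smallest limma adjusted p = 0.204, with 1207 genes higher and 1688 lower at an unadjusted p under 0.05). The groups were apart for none of the 10, beside 2.41% of all genes lower and 2.77% higher without overlap. Fabp5 had 72.3, 156.1, 72.0 and 60.1 FPKM in auranofin iWAT, against 109.5, 157.1, 118.1 and 160.9 FPKM in vehicle iWAT (-0.68, SE 0.29, limma adjusted p = 0.22). Lgals3 had 89.0, 134.2, 73.2 and 71.2 FPKM in auranofin iWAT, against 137.4, 177.4, 105.6 and 121.5 FPKM in vehicle iWAT (-0.58, SE 0.24, adjusted p = 0.212). In both genes 3 auranofin libraries were below every vehicle library and the second auranofin library lay within the vehicle range. Spp1 lay above every vehicle library in 3 of 4 auranofin libraries, with 3.31, 0.322, 2.79 and 6.09 FPKM in auranofin iWAT, against 1.34, 1.67, 1.37 and 0.449 FPKM in vehicle iWAT (0.71, SE 0.45, adjusted p = 0.345). Without the second auranofin iWAT library, Fabp5 (-0.98), Lgals3 (-0.77), Cd63 (-0.50) and Spp1 (1.18) were called, with limma adjusted p between 0.00325 and 0.0196, and so were 2000 genes higher and 2819 lower over the whole table. Weights for library quality called these 4 and Tyrobp, with 2631 genes higher and 3464 lower over the table. The second auranofin iWAT library had an implied library size of 18848468, within the vehicle iWAT range of 17251599 to 20272361. The other auranofin iWAT libraries had 22327421 to 23518961. The part of that scaling in these calls was not tested. On the TPM scale the median of all genes in iWAT moved to 0.23, and 4 members lay above that median and 6 below.

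In liver 8 members passed the filter on low values, a mean of 0.5 FPKM, and Trem2 and Gpnmb did not, their lowest liver libraries holding 5 and 1 reads. Of the 8, 6 had a higher mean log2 level under auranofin and 2 a lower one, with a median of 0.18 beside -0.01 over all genes, and 0 of 13122 genes tested were called (0%, smallest limma adjusted p = 0.0824, with 328 higher and 465 lower at an unadjusted p under 0.05). The groups were apart for none of the 8, beside 2.20% of all genes lower and 1.52% higher without overlap. Cd9 had 15.7, 17.0, 15.5 and 17.8 FPKM in auranofin liver, against 11.0, 12.9, 13.8 and 16.9 FPKM in vehicle liver (0.27, SE 0.12, limma adjusted p = 0.79). The first 3 vehicle libraries lay below every auranofin library. Fabp5 averaged 2.58 ± 0.876 FPKM in auranofin liver and 1.75 ± 0.278 FPKM in vehicle liver (0.35, SE 0.17, adjusted p = 0.79), and Spp1 48.3 ± 14.6 and 41.2 ± 8.51 FPKM (0.20, SE 0.23, adjusted p = 0.894). Lipa averaged 100.7 ± 16.4 FPKM in auranofin liver and 117.6 ± 15.1 FPKM in vehicle liver (-0.23, SE 0.13, adjusted p = 0.809).

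Whether the drug difference in eWAT departed from that in another tissue was tested directly. None of the 10 was called against iWAT, BAT or liver, and 0% of the 13670, 13842 and 14475 genes tested were by limma, with 1816 higher and 1403 lower, 460 and 349, and 875 and 840 at an unadjusted p under 0.05. The largest differences against iWAT were those of Spp1 (-2.55, SE 0.96, limma adjusted p = 0.177), Gpnmb (-1.94, SE 0.81, adjusted p = 0.186) and Lipa (-1.33, SE 0.49, adjusted p = 0.177). Against BAT the smallest p was that of Lipa (-1.19, SE 0.47, adjusted p = 0.777). Against liver Spp1 (-2.03, SE 0.86) and Cd9 (-1.12, SE 0.43) had unadjusted p under 0.05 and an adjusted p of 0.418. Each of these comparisons uses the same eWAT libraries.

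General macrophage genes had the same direction as the members in eWAT and BAT. In eWAT 22 of the 24 pan-macrophage genes had a lower mean under auranofin, with a median of -0.71, and their summed level ran from 1421 to 3324 FPKM in auranofin libraries and from 2698 to 6357 FPKM in vehicle libraries. In BAT 23 of 23 tested were lower, with a median of -0.63 and sums of 159.9 to 307.6 FPKM with auranofin and 287.8 to 529.4 FPKM with vehicle. In iWAT 14 of 24 were lower (median -0.03), and in liver 22 of 22 were higher (median 0.32), with sums of 253.2 to 356.0 FPKM with auranofin and 200.9 to 311.8 FPKM with vehicle. None of these genes was called in any tissue. The smallest p in the list was that of Cd53, a leukocyte tetraspanin, in both eWAT (-1.27, SE 0.48, limma adjusted p = 0.429) and BAT (-1.02, SE 0.20, adjusted p = 0.212). Genes of resident or perivascular macrophages did not share that direction in auranofin eWAT, where 7 were higher and 5 lower (median 0.15). In auranofin BAT 2 of them were higher and 9 lower (median -0.32). Monocyte and dendritic cell genes had medians of -0.09 in auranofin eWAT and -0.02 in auranofin BAT.

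**Figure D5:**
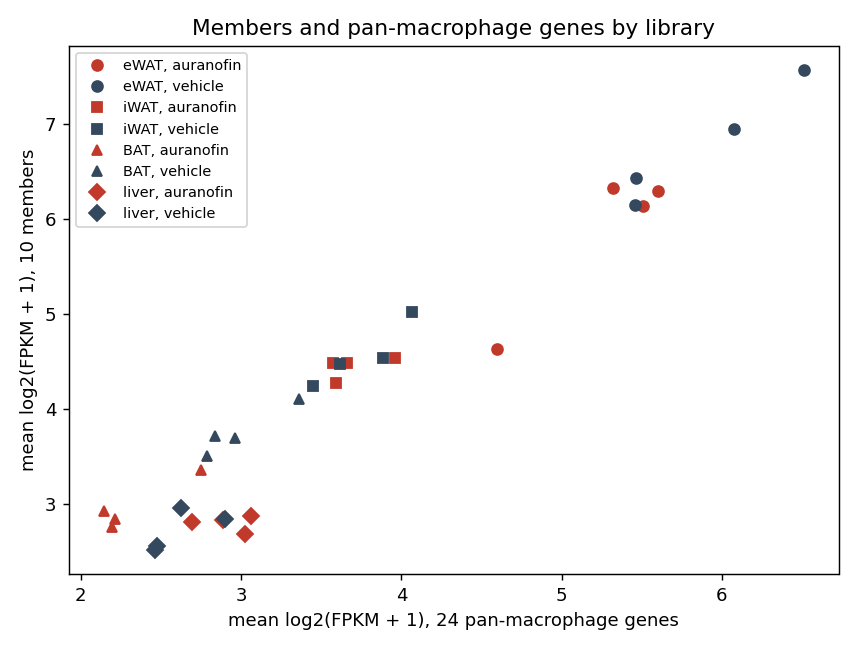
Mean log2(FPKM + 1) of the 10 members against that of 24 pan-macrophage genes in each of 32 libraries, auranofin in red and vehicle in dark blue, with 1 marker shape per tissue. Libraries with higher macrophage levels have higher member levels across the fat depots, from BAT at the lower left to eWAT at the upper right.

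With the mean level of the pan-macrophage genes as a covariate, the median difference of the members was -0.03 in eWAT, where 4 members lay above 0 and 6 below, and -0.14 in BAT, with the same counts. Taken minus the macrophage mean of the same library, Lgals3 in BAT still did not overlap between groups, at 1.17 to 2.19 in auranofin libraries and 2.43 to 3.08 in vehicle libraries on the log2 scale, where 0.0765% of all genes were apart in that direction. Lipa was the only other member whose groups came apart on that relative scale. It stood at 0.68 to 0.98 in auranofin eWAT and 1.04 to 2.09 in vehicle eWAT (0.289% of all genes lower without overlap), but at 2.75 to 3.55 in auranofin BAT and 2.31 to 2.73 in vehicle BAT (35.7% of all genes higher without overlap), and at 1.11 to 1.30 in auranofin iWAT and 0.93 to 1.07 in vehicle iWAT (0.646% higher). In BAT the level of Lipa itself differed by -0.02 (SE 0.11) while the subtracted macrophage mean was 2.33 in auranofin and 2.99 in vehicle libraries, and the separation there was one that many genes shared. The part of macrophage number in these results was not tested.

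Markers of other cells also differed in mean between the groups. In eWAT 18 of 20 adipocyte genes were higher under auranofin (median 0.78), with sums of 9632 to 17480 FPKM in auranofin libraries. The vehicle libraries held sums of 4048, 6804, 10100 and 11060 FPKM. The first 2 of these lay below every auranofin library and the last 2 within the auranofin range. Lower in auranofin eWAT were 16 of 16 fibroblast and progenitor genes (median -0.64), 17 of 17 cell division genes (median -0.69) and 10 of 10 mast cell and neutrophil genes (median -1.20), and 11 of 12 hepatocyte genes were higher (median 1.46), with summed levels of 1196 to 1659 FPKM with auranofin and 1307 to 2165 FPKM with vehicle. The mean log2 level of the hepatocyte genes was 5.67 in the second auranofin eWAT library, where all 10 members were lowest, and 1.96 to 4.27 in the other 7 eWAT libraries. In BAT 14 of 15 fibroblast genes and 5 of 5 cell division genes were lower under auranofin, and 15 of 15 skeletal muscle genes and 10 of 10 brown adipocyte genes were higher. None of the genes counted in these lists was called. Their part in the member values was not tested.

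Genes that work with the members were read from lists. Of 26 genes of TREM2 and DAP12 signalling, 23 were tested in eWAT and 21 had a lower mean under auranofin (median -0.49), the smallest p being those of Pik3ap1, a PI3K adaptor (-1.12, SE 0.31), and Btk, a tyrosine kinase (-0.92, SE 0.29), each with a limma adjusted p of 0.429. In BAT 17 of 19 were lower (median -0.21), and in iWAT 15 of 21 were higher (median 0.16). Between tissues, 20 of 23 of them were called higher in vehicle eWAT than in iWAT, led by Syk, the kinase recruited to DAP12 (2.31, SE 0.17, limma adjusted p = 4.22e-04). Of a wider list of 45 lipid-associated macrophage genes, 37 of 43 tested were lower in auranofin eWAT (median -0.56) and 31 of 38 in auranofin BAT (median -0.23). In auranofin iWAT 30 of 41 were lower (median -0.15, beside -0.02 over all genes), and in auranofin liver 25 of 32 (median -0.10, beside -0.01). Apoe, encoding apolipoprotein E and made by adipocytes as well as macrophages, was an exception in eWAT, with 1609 ± 345 FPKM in auranofin and 859.6 ± 188.1 FPKM in vehicle libraries (0.91, SE 0.27, limma adjusted p = 0.429). Between tissues, 25 of the 43 tested were called higher and 4 lower in vehicle eWAT than in iWAT, among them Itgax, encoding CD11c (3.47, SE 0.33, adjusted p = 5.54e-04).

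Partners of the secreted members included Cd44, a receptor for osteopontin. It had 11.04 ± 3.56 FPKM in auranofin eWAT and 35.4 ± 21.0 FPKM in vehicle eWAT (-1.45, SE 0.44, limma adjusted p = 0.429), and 1.56 ± 1.17 FPKM in auranofin BAT and 4.62 ± 0.202 FPKM in vehicle BAT (-1.23, SE 0.24, adjusted p = 0.212). Over the whole list of osteopontin and galectin partners, 8 of 15 were lower in auranofin eWAT and 11 of 13 in auranofin BAT. Of 20 tetraspanins in a list that leaves out Cd9, Cd63 and Cd53, 17 were higher in auranofin eWAT (median 0.24) and none was called. Of 18 lysosome regulators and cholesterol efflux genes, 10 were lower in auranofin eWAT (median -0.18), Npc1, a lysosomal cholesterol exporter, by -0.62 (SE 0.20, adjusted p = 0.429), and 6 of 17 were lower in auranofin BAT.

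Among all protein-coding genes with a mean of 1 FPKM or more that are no members, those whose log2 level was most like that of Trem2 over the 8 eWAT libraries were Pld3 (r = 0.997), Psap (r = 0.993), Spi1 (r = 0.982), Grn (r = 0.981) and Grb2 (r = 0.981). Over all 32 libraries they were Vsig8 (r = 0.985), Pianp (r = 0.981), P2ry6 (r = 0.980), Kcnn4 (r = 0.979) and Myo1f (r = 0.978). Within the members, the likeness to Trem2 over the eWAT libraries ran from 0.669 for Lipa to 0.967 for Capg, and over all 32 libraries from 0.211 for Spp1 and 0.286 for Lipa to 0.975 for Gpnmb. These are Pearson correlations, given as a description, and libraries share tissue, depth and the 2 extreme eWAT libraries.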

How the data were processed

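RNA was measured in 32 libraries from a non-stranded kit. The deposited table holds FPKM per gene; STAR 2.6.1d, featureCounts 1.5.0-p3, DESeq2 1.20.0 and the build mm10 are named in the submitters' processing notes, with no role or order. FPKM times gene length gave whole reads within 0.1 read for 100% of values, so depth could be rebuilt. limma 3.58.1 (R 4.3.3) was run on log2(FPKM + 1) with an intensity trend, on genes with a mean of 0.5 FPKM or more over the libraries of each fit, with Benjamini-Hochberg adjustment over all genes tested and a threshold of 0.05. Tables were handled with Python 3.11.15, pandas 2.3.3 and numpy 2.4.6. The scripts were tested on simulated data.

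Comparisons were auranofin against vehicle in each tissue, the 6 tissue pairs among vehicle libraries, and the drug difference of eWAT minus that of each other tissue. Named were all 10 members, the genes with the smallest p of each list, the 5 genes most like Trem2 and a few markers. Levels of Apoe and Cd44 were given in more detail after their values were seen. The members and lists were chosen with earlier results of these data known. Alternatives were other pseudocounts, filters, scalings and normalisations, voom, quality weights, covariates, a replicate block and leaving out libraries; the skeletal muscle covariate was chosen after seeing the data.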

Additional observations from a re-analysis of the deposited data

Results flagged for a closer look

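Of 80 sets of 4 libraries (1 gene in 1 group), 6 held an outlying library. Its gap to its nearest neighbour took up more of the set's range than Dixon's 95% limit for 4 samples. Chance gives about 1 in 20 for independent sets of normally distributed values. These sets share libraries and hold untransformed FPKM, so their count cannot be judged against that share. In auranofin eWAT the second library stood below the rest for Cd9, with 20.5 FPKM against 45.2 to 48.4 FPKM, for Lgals3, with 75.2 FPKM against 322 to 366 FPKM, and for Capg, with 19.7 FPKM against 76.8 to 77.0 FPKM. In vehicle eWAT the first library stood above the rest for Cd63, with 148 FPKM against 80.2 to 90.7 FPKM. The second auranofin library stood above the rest for Trem2 in BAT, with 0.942 FPKM against 0.328 to 0.416 FPKM, and for Fabp5 in iWAT, with 156 FPKM against 60.1 to 72.3 FPKM.

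Cd9 had drug differences of opposite sign in 2 tissues. In BAT its drug difference was -0.46 (SE 0.18, limma adjusted p = 0.401), and all 4 auranofin libraries lay below the vehicle mean. In liver it was 0.27 (SE 0.12, limma adjusted p = 0.79), and all 4 lay above that mean. Neither difference was called, and the groups overlapped in both tissues. The difference between these tissues was not tested.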

How the results depend on the processing

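The number of members called was 0 for the drug in each tissue and moved under few settings. One fit of all 32 libraries called 4 in eWAT, 1 in BAT (Lgals3) and 2 for eWAT minus iWAT drug differences (Spp1, Lipa). Quality weights called 5 in iWAT and 1 for that difference (Cd63). In auranofin libraries eWAT against iWAT gave 5 in place of 10. Leaving out 1 library gave 0 to 4 in iWAT, 0 to 3 in BAT and 0 to 1 for the eWAT minus iWAT drug difference. For BAT in the single fit and for the eWAT minus iWAT drug difference, the number of all genes called in the same setting is not given. Those member counts therefore have no share to be read against. The causes were not tested.

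Signs changed for small differences under several settings, and for larger ones with the macrophage covariate, such as Trem2 and Tyrobp in BAT (-0.71 and -0.92 without it) and Trem2 and Capg in eWAT (-0.82 and -0.76). In eWAT these were Cd63 at 0.022 and Tyrobp at 0.000 with quality weights, Cd63 at 0.023 without the first 2 vehicle libraries, and Trem2 at 0.21, Cd63 at 0.16, Capg at 0.08 and Tyrobp at 0.20 with the macrophage covariate. With that covariate so did Trem2 at 0.046, Cd9 at 0.10, Lipa at 0.10 and Tyrobp at 0.046 in BAT, and Lgals3 at -0.36, Capg at -0.26 and Tyrobp at -0.25 in liver. Fabp5 in BAT was 0.007 with quality weights and 0.056 with the muscle covariate, and Capg in iWAT was 0.051 on the TPM scale. For eWAT minus liver, Spp1 was 1.00 on the TPM scale and 0.50 after quantile normalisation but -1.26 with quality weights and -2.21 in auranofin libraries, and Lipa was 1.62 on the TPM scale, 1.44 after quantile normalisation, -0.23 with quality weights, -0.28 without the first 2 vehicle libraries and -0.57 in auranofin libraries. In auranofin libraries Spp1 was 1.27 for iWAT minus BAT and Tyrobp -0.71 for BAT minus liver. Leaving out 1 library gave -0.52 to 0.031 for Trem2 in iWAT, -0.11 to 0.034 for Lipa and -0.20 to 0.20 for Fabp5 in BAT, -0.27 to 0.06 for Cd63 and -0.11 to 0.20 for Lgals3 in liver, and -0.75 to 0.30 for Spp1 in eWAT minus liver.

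The labels do not say whether same-numbered libraries share an animal. Their deviations correlated at -0.218 to 0.397, and each comparison had at least 1 number under 0.1. Such correlations cannot decide it, and the main fits treat the libraries as unpaired. With the replicate block 0 members were called for the drug in each tissue, and 9 in place of 7 for iWAT minus BAT, adding Trem2 (0.76, limma adjusted p = 0.00792) and Gpnmb (0.51, adjusted p = 0.043). The number of all genes called with that block is not given. Counting error is large for Trem2 and Gpnmb in liver and for Spp1 in auranofin BAT, whose fewest reads in a library were 5, 1 and 2.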
